A study of Mus musculus with 4 samples.

Results

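The genes described here are those of the basement membrane backbone other than the laminins: the 6 type IV collagen chains (Col4a1, Col4a2, Col4a3, Col4a4, Col4a5 and Col4a6), the nidogens Nid1 and Nid2, agrin (Agrn) and perlecan (Hspg2). They were chosen by symbol, and all 10 were found among the 52636 gene identifiers of the count tables. RNA had been sequenced from cells of mouse kidney sorted by FACS, in 2 Brg1-cKO libraries and 2 control libraries of 3000 cells each. Brg1-cKO by usual usage is a conditional knockout of Brg1, the ATPase of SWI/SNF chromatin remodelling complexes that the gene Smarca4 encodes. The title of the series names Eya1, Six2 and the nephron progenitor pool. The strain, the age, the deleting allele, its driver, the sorting marker and whether a library holds cells of 1 animal are not given in the sources used here, so p-values measure only how these libraries scatter, which may be technical.

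Type IV collagen is the sheet-forming collagen of every basement membrane. Its chains fold into trimers of fixed make-up. The trimer of the chains from Col4a1 and Col4a2 is found in nearly all basement membranes, including those of the early nephron. The trimer of the chains from Col4a3, Col4a4 and Col4a5 is made by podocytes and replaces it in the mature glomerular filter. Loss of any of these chains causes Alport syndrome in humans. Nidogens link the collagen and laminin sheets. Agrin is the main heparan sulfate proteoglycan of the glomerular basement membrane, and perlecan is that of most other basement membranes.

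The chains Col4a3 and Col4a4 stood about an order of magnitude higher in Brg1-cKO, while the far more abundant Col4a1 and Col4a2 lay within a few percent of control on average. Agrin was higher in Brg1-cKO and perlecan lower, and their order by level was the opposite in the 2 groups. Col4a5 stood somewhat higher, Col4a6 and Nid1 lower, and Nid2 lay on either side of control. In edgeR's quasi-likelihood test 0 of the 10 genes had an adjusted p under 0.05, as had 0 of all 18172 genes tested. At an unadjusted p under 0.05, 3 of the 10 were higher (Col4a3, Col4a4 and Agrn) and 1 was lower (Hspg2), beside 5.44% of all tested genes called higher and 12.9% called lower. Without control replicate 1 or control replicate 2 the higher count was 1 (Col4a4), beside 1.3% and 1.28% of all genes in those fits. Without Brg1-cKO replicate 1 the lower count was 6, beside 34.2% of all genes. Without Brg1-cKO replicate 2 there were 5 higher and 2 lower, beside 25.2% and 39.3% of all genes. At an adjusted p under 0.05, DESeq2 called 3 of the 10 higher and 1 lower, beside 4.04% and 2.52% of the 30930 genes it tested. That total includes any genes that its own filtering left without an adjusted p. The likelihood ratio test called 3 higher and 0 lower, beside 3.03% and 10.6% of all genes. With limma-voom there were 1 higher and 0 lower, beside 0.336% and 1.46%. In 4 of the 10 genes both Brg1-cKO libraries lay above both controls and in 4 both lay below, where among all tested genes 17.5% lay above and 34.5% below. The median log2 fold change was -0.00 over the 10 genes and -0.06 over all tested genes.

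**Figure D1:**
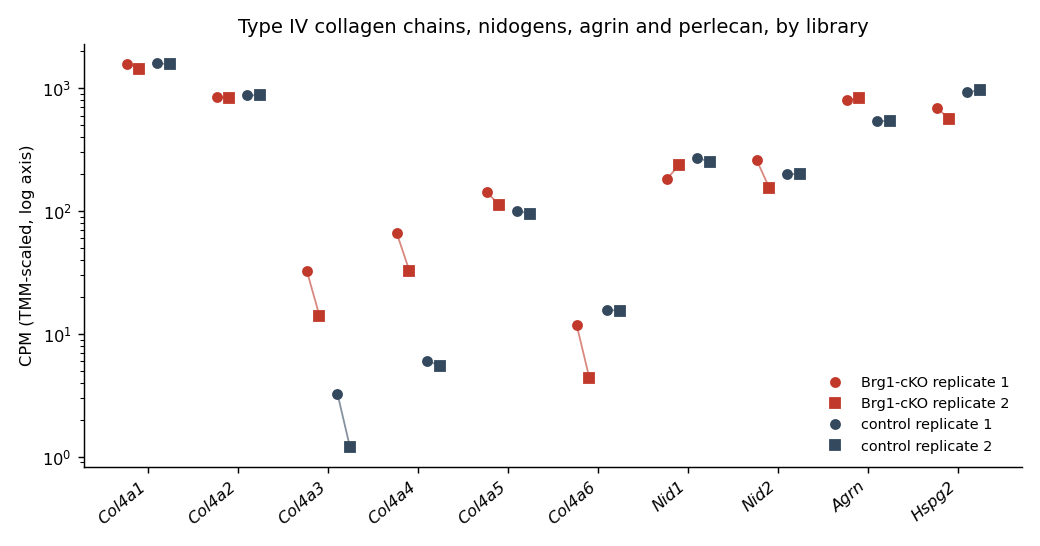
Level of each gene in each library in CPM (counts scaled to library size with TMM factors, log axis), with Brg1-cKO in red and control in dark blue, and a line joining the 2 libraries of a group. Col4a3 and Col4a4 lie at 14.1 to 66.0 CPM in Brg1-cKO and at 1.19 to 6.06 CPM in control, and the Col4a1 and Col4a2 points of the groups lie close together.

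The gene counts came to 14645665 and 10922272 in the Brg1-cKO libraries and to 35411905 and 37999342 in the controls. Genes with any count numbered 16300 and 18038 in Brg1-cKO and 26486 and 27091 in control. Of all 18172 tested genes, 1527 had 0 counts in both Brg1-cKO libraries. Uniquely aligned reads outside counted genes made up 49.5% and 57.2% in Brg1-cKO against 16.5% and 15.4% in control. Smarca4, the targeted gene, was at 760.1 and 691 CPM in Brg1-cKO cells against 898 and 937 CPM in control, with -0.34 as its log2 fold change (SE 0.09) and 0.167 as its adjusted p in edgeR. Its counts cover the whole gene and check the labels only in part. Xist stood at 836 and 1205 CPM in Brg1-cKO and at 244 and 217 CPM in control. The Y-linked Ddx3y stood at 1.05 and 3.27 CPM in Brg1-cKO and at 76.0 and 78.8 CPM in control. Each control library thus held RNA of both genes, as cells of both sexes together would, and whether animals were pooled is not given. Sex and genotype cannot be told apart in these libraries.

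The 6 collagen genes lie in 3 head-to-head pairs, each transcribed in opposite directions from neighbouring starts. On mm10, in the GENCODE annotation, Col4a1 (ENSMUSG00000031502) spans chromosome 8 from 11198423 to 11312826 on the minus strand, and Col4a2 (ENSMUSG00000031503) runs from 11312805 to 11449287 on the plus strand. Their exons share 22 bases at the starts. Col4a4 (ENSMUSG00000067158) spans chromosome 1 from 82448423 to 82586849 on the minus strand, and Col4a3 (ENSMUSG00000079465) runs from 82586921 to 82722059 on the plus strand, with 72 bases from start to start. Col4a6 (ENSMUSG00000031273) spans the X chromosome from 141165403 to 141474076 on the minus strand, and Col4a5 (ENSMUSG00000031274) runs from 141475385 to 141689234 on the plus strand, with 1309 bases from start to start. All 10 genes are protein-coding. Nid1 (ENSMUSG00000005397) lies on chromosome 13 from 13437551 to 13512269, Nid2 (ENSMUSG00000021806) on chromosome 14 from 19751265 to 19811787, both on the plus strand. Agrn (ENSMUSG00000041936) lies on chromosome 4 from 156165290 to 156197488 on the minus strand, and Hspg2 (ENSMUSG00000028763) on the same chromosome from 137468769 to 137570630 on the plus strand.

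Partners had like differences between the groups in the pairs Col4a3 with Col4a4 and Col4a1 with Col4a2, but not in Col4a5 with Col4a6. The promoter windows of 3 genes of the former pairs are shown. They come from RefSeq (GRCm38.p6), where 8 of the 10 genes have at least 1 window; Col4a3 and Nid2 have none. Each window runs 5′ to 3′ along the named gene's strand, from 250 bases before its start. Capitals mark the bases from that start to the start of the partner gene, both included. The Col4a4 window (chr1:82586800-82587099, minus strand) therefore holds the start of Col4a3 as well, in its capitals. The Col4a1 window (chr8:11312777-11313076, minus strand) and the Col4a2 window (chr8:11312555-11312854, plus strand) overlap by 78 bases.
Col4a4: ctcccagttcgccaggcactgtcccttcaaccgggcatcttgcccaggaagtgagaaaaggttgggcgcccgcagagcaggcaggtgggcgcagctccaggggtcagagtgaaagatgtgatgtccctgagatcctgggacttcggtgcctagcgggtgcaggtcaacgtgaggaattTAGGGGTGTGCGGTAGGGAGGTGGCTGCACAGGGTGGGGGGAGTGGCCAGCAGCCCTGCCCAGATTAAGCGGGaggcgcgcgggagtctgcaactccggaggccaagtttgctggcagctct
Col4a1: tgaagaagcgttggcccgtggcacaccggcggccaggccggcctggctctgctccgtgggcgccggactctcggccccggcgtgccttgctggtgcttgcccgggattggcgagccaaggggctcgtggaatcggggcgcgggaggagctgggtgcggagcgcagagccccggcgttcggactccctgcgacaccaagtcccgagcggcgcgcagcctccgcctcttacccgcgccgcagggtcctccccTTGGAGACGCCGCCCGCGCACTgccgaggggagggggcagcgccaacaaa
Col4a2: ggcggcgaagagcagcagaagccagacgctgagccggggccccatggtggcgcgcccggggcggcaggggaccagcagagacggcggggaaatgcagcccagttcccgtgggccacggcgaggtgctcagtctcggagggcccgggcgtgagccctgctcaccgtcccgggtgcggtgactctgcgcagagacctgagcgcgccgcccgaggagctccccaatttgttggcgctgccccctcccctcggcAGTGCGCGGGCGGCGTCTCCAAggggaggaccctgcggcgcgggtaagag

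The 2 loci differ in composition. G and C made up 63.3% of the Col4a4 window, 74.0% of the Col4a1 window and 73.7% of the Col4a2 window, where the median of all 32851 windows is 52.7%. The GC box GGGCGG, searched on both strands, occurs 1 time in the Col4a1 window and 3 times in the Col4a2 window, and 1 of these is the same stretch of the genome, inside the capitals. It occurs 0 times in the Col4a4 window, and 35.7% of all windows hold it. The CCAAT box, also searched on both strands, occurs 1 time each in the Col4a1 and Col4a2 windows and 0 times in the Col4a4 window, and 37.4% of all windows hold it. The homeodomain core TAATTA, which Lmx1b among others can bind, and the TATA box TATAAA occur in none of the 3, and 5.29% and 13.6% of all windows hold them. The Agrn window nearest its annotated start holds GGGCGG 12 times and the Hspg2 window 5 times. A match is a string of letters and not a shown binding site.

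Col4a3 had 466 and 151 counts in the Brg1-cKO libraries and 117 and 46 counts in the deeper controls. On the CPM scale this is 32.6 and 14.1 in Brg1-cKO and 3.27 and 1.19 in control. The groups did not overlap, and within each group replicate 1 was the higher by more than the counting error of such counts. The means were 23.3 ± 13.1 CPM in Brg1-cKO cells and 2.23 ± 1.47 CPM in control (SD, n = 2 each). The log2 fold change was 3.38 (SE 0.96), with an edgeR unadjusted p of 0.0254 and an adjusted p of 0.189. Without control replicate 1 the unadjusted edgeR p was 0.108, and without control replicate 2 this p reached 0.231, with log2 fold changes of 4.25 and 2.80. Of the exon length of Col4a3, 5.65% is also covered by C430014B12Rik on the opposite strand, which had 0 counts in both Brg1-cKO libraries and 2 and 26 counts in control.

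Col4a4, its head-to-head partner, had 944 and 349 counts in Brg1-cKO and 217 and 211 counts in control. Its level was 66.0 and 32.6 CPM in Brg1-cKO cells and 6.06 and 5.47 CPM in control. The lower Brg1-cKO library was still over 5 times the control mean (5.65-fold, against 11.4-fold in the other library), and the controls lay close together. The log2 fold change was 3.09 (SE 0.53), and edgeR's quasi-likelihood test gave an unadjusted p of 0.00456, or 0.166 adjusted. Other tools gave Col4a4 a smaller adjusted p, namely 1.48e-06 in DESeq2, 0.00103 in edgeR's likelihood ratio test and 0.0944 in limma-voom. For Col4a3 these were 0.00293, 0.0269 and 0.171. All used the same counts. With the replicate number as a block, edgeR gave Col4a4 an adjusted p of 0.0454, the only one of the 10 genes under 0.05, in a fit that called 0.616% of all genes higher and 0.242% lower.

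Both partners stood at the upper end of all genes, in that 95.9% of tested genes had a lower log2 fold change than Col4a3 and 95.2% a lower one than Col4a4. A log2 fold change above 3 was found for 4.93% of tested genes. The 2 genes kept a like proportion to each other in Brg1-cKO. Per kilobase of exon, Col4a4 was 1.90 and 2.17 times Col4a3 in the Brg1-cKO libraries and 1.74 and 4.31 times in control, where the second value rests on only 46 counts of Col4a3.

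Col4a5, the third chain of the podocyte trimer and an X-linked gene, was at 143 and 111 CPM in Brg1-cKO and at 101 and 94.99 CPM in control. Both Brg1-cKO libraries lay above both controls, by far less than for Col4a3 and Col4a4. Its log2 fold change was 0.38 (SE 0.21, edgeR adjusted p = 0.467). Col4a5 was also the most abundant of these 3 chains in control, at 14.6 ± 0.619 CPM per kilobase against 0.544 ± 0.0395 for Col4a4 and 0.224 ± 0.147 for Col4a3 (SD, n = 2). Col4a6, the other X-linked chain, which joins Col4a5 in a trimer of Bowman's capsule and some tubules, was at 11.7 and 4.39 CPM in Brg1-cKO and at 15.7 and 15.5 CPM in control. Its 168 and 47 counts in Brg1-cKO differed between the libraries by more than from control in replicate 1, and the log2 fold change of -0.95 (SE 0.79) had an edgeR adjusted p of 0.642. The 2 X-linked partners thus stood on opposite sides of control, in libraries that also differ in Xist.

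Col4a1 was the most abundant of the 10 genes and reached 1589 and 1447 CPM in Brg1-cKO cells against 1600.1 and 1567 CPM in control. The groups overlapped. The log2 fold change was -0.06 (SE 0.08, edgeR adjusted p = 0.770), and 2 SE to either side run from -0.215 to 0.092. Col4a2 was at 853 and 833 CPM in Brg1-cKO and at 878 and 875 CPM in control. Its libraries did not overlap, but the difference was small, at -0.06 on the log2 scale (SE 0.07, edgeR adjusted p = 0.775) with 2 SE from -0.202 to 0.089. The proportion of the 2 chains was nearly the same in every library. Per kilobase of exon, Col4a2 was 0.605 and 0.649 times Col4a1 in Brg1-cKO and 0.619 and 0.630 times in control.

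**Figure D2:**
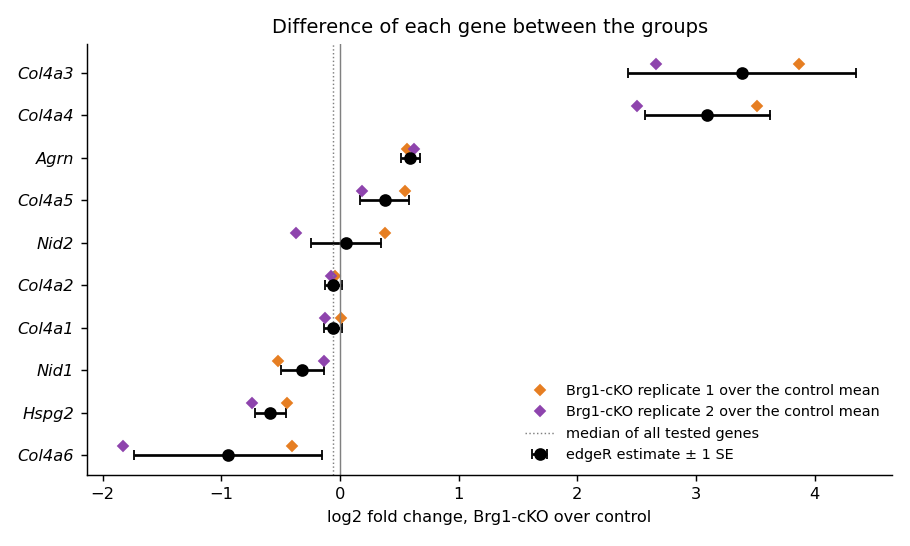
Log2 fold change of each gene, Brg1-cKO over control, as the edgeR estimate with 1 SE to either side (black), and each Brg1-cKO library over the control mean (coloured diamonds). Col4a3 and Col4a4 lie at 3.38 and 3.09, far from the other 8 genes, and the diamonds of Nid2 lie on either side of 0.

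The make-up of the collagen IV transcripts can be read within a library, where it does not depend on scaling. Col4a1 and Col4a2 together gave 90.6% (95% Wilson interval 90.3 to 90.9) and 93.4% (93.0 to 93.7) of all type IV collagen counts in the Brg1-cKO libraries. In control they gave 95.2% (95.03 to 95.3) and 95.4% (95.3 to 95.5). Col4a3 and Col4a4 together gave 3.66% (3.47 to 3.85) and 1.91% (1.75 to 2.09) in Brg1-cKO, and 0.358% (0.322 to 0.399) and 0.260% (0.230 to 0.294) in control. These intervals cover counting error only. Col4a5 gave 5.31% and 4.55% in Brg1-cKO and 3.87% and 3.71% in control, and Col4a6 gave 0.436% and 0.180% in Brg1-cKO and 0.601% and 0.605% in control. The podocyte chains were thus a larger part of the pool in both Brg1-cKO libraries and remained a small one beside Col4a1 and Col4a2.

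The log2 ratio of Col4a3 to Col4a1 counts was -5.61 and -6.68 in Brg1-cKO and -8.93 and -10.36 in control, a difference of 3.50. That of Col4a4 to Col4a2 counts was -3.69 and -4.68 in Brg1-cKO and -7.18 and -7.32 in control, a difference of 3.07. In both ratios the groups lay apart, and the gap between them was wider than the distance within either group. An exact two-sided permutation test gave p = 0.333 for each, the smallest that 2 against 2 libraries allow. Over the 8 ratios between members that were computed, the adjusted value of these permutation p was 0.533.

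**Figure D3:**
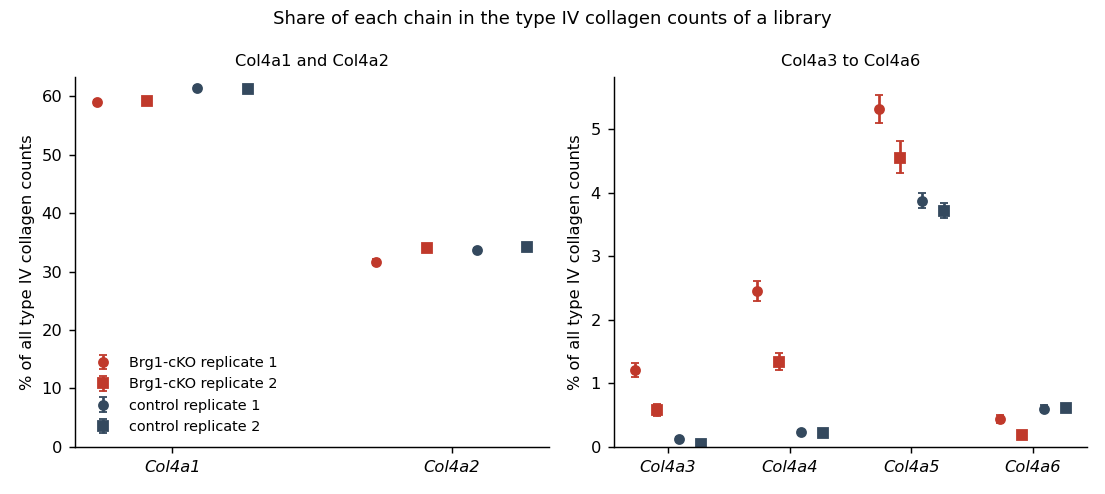
Share of each chain in all type IV collagen counts of a library, in percent, with 95% Wilson intervals, for the 2 Brg1-cKO libraries (red) and the 2 controls (dark blue). Col4a1 and Col4a2 (left) make up over 90% in every library, and Col4a3, Col4a4 and Col4a5 (right, on a scale of their own) are higher in each Brg1-cKO library than in either control.

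Agrin, a large heparan sulfate proteoglycan that binds laminin and the receptor dystroglycan, was at 799.9 and 832 CPM in Brg1-cKO and at 539 and 544 CPM in control. The libraries of each group agreed closely, and the groups lay well apart. The means were 816 ± 22.7 CPM in Brg1-cKO cells and 542 ± 3.56 CPM in control (SD, n = 2 each). The log2 fold change was 0.59 (SE 0.08), which is 1.51-fold, and edgeR's quasi-likelihood test gave an unadjusted p of 0.00166, or 0.166 adjusted. Adjusted p-values for Agrn were 1.17e-10 by DESeq2, 0.0312 by the likelihood ratio test and 0.0494 by limma-voom. Its unadjusted edgeR p missed the threshold without control replicate 1 (0.0617) and without control replicate 2 (0.0541).

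Perlecan was at 694 and 564 CPM in Brg1-cKO and at 931 and 960.0 CPM in control. Both Brg1-cKO libraries lay below both controls. For Hspg2 the log2 fold change was -0.59 (SE 0.13), and edgeR's quasi-likelihood test gave an unadjusted p of 0.0113, or 0.166 adjusted. The adjusted p of Hspg2 was 0.0158 by DESeq2, 0.0637 by the likelihood ratio test and 0.0897 by limma-voom. Per kilobase of exon, agrin was 1.78 and 2.27 times perlecan in the Brg1-cKO libraries and 0.892 and 0.874 times in control. The log2 ratio of their counts differed by 1.19 between the groups, with an exact two-sided permutation p of 0.333.

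The nidogens showed no common direction. Nid1 was at 182 and 238 CPM in Brg1-cKO and at 270.4 and 253 CPM in control, with both Brg1-cKO libraries lower. For Nid1 the log2 fold change was -0.32 (SE 0.18, edgeR adjusted p = 0.484). Nid2 was at 260.3 and 155 CPM in Brg1-cKO and at 201 and 199.96 CPM in control, 1 Brg1-cKO library above control and 1 below. The log2 fold change of Nid2 was 0.05 (SE 0.29) with all libraries, where its edgeR adjusted p was 0.956. It was -0.40 without Brg1-cKO replicate 1 and 0.36 without replicate 2. Of the exon length of Nid2, 8.45% is also covered by Rtraf on the opposite strand, at 55.4 and 93.4 CPM in Brg1-cKO cells and 101 and 106 CPM in control. Whether strand was used in the counting was not given in the sources used here.

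By level per kilobase of exon, the order in Brg1-cKO was Col4a1, Col4a2, Agrn, Hspg2, Nid2, Nid1, Col4a5, Col4a4, Col4a3 and Col4a6, with means that run from 203 ± 13.5 to 1.01 ± 0.652 CPM per kilobase (SD, n = 2). The libraries of Hspg2 and Nid2 overlapped, as did those of Nid2 and Nid1, Col4a4 and Col4a3, and Col4a3 and Col4a6. In control the order was Col4a1, Col4a2, Hspg2, Agrn, Nid2, Nid1, Col4a5, Col4a6, Col4a4 and Col4a3, with means that run from 212 ± 3.11 to 0.224 ± 0.147 CPM per kilobase. There only Nid2 and Nid1 overlapped among neighbours. Agrn and Hspg2 stood in opposite order in the groups, and Col4a6 was the lowest in Brg1-cKO but above Col4a3 and Col4a4 in control.

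The genes whose profile over the 4 libraries came closest to that of Col4a3 were Nrxn3, Rimkla, Scn3a, Col4a4 and Hcn2, at distances of 0.0946, 0.477, 0.582, 0.605 and 0.711 on a log2(CPM + 1) scale, out of 9841 genes at a mean of 10 CPM or more, predicted genes left out. The partner Col4a4 was thus among the closest 5. Those closest to Col4a1 were Cdc5l, Gatad2b, Dnmt1, Depdc5 and Ctnnb1, at distances of 0.0197 to 0.0301. With 4 libraries these distances only describe the profiles.

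Laminins are the other sheet of the basement membrane, and agrin and the nidogens bind them. Of 11 tested laminin chains, 3 were higher in Brg1-cKO and 0 lower at an unadjusted p under 0.05, beside 5.44% and 12.9% of all tested genes. None passed the adjusted threshold, and the median log2 fold change was 0.22. Lama5, the alpha chain of the mature glomerular filter, was at 602 and 521 CPM in Brg1-cKO and at 238 and 230.2 CPM in control (log2 fold change 1.26, SE 0.12). Lamb1 had 0.59 (SE 0.08) and Lamc1 0.39 (SE 0.09). Lamb1 is a chain of the early glomerular trimer, and Lamb2, its successor in the mature filter, was at 149 and 143 CPM in Brg1-cKO cells against 128 and 140.1 CPM in control.

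Receptors for these proteins were split. Of 11 tested, 4 were higher and 3 lower at an unadjusted p under 0.05, beside 5.44% and 12.9% of all tested genes. Of the 11, 0 passed the adjusted threshold, and the median log2 fold change was 0.22. Dag1, which encodes dystroglycan, a receptor of agrin and perlecan, was at 507 and 599 CPM in Brg1-cKO and at 335 and 338 CPM in control (log2 fold change 0.72, SE 0.12). Ddr1, a receptor tyrosine kinase that binds collagens, had 0.76 (SE 0.16). Itga3, the integrin alpha chain of podocytes, had 1.46 (SE 0.19), and the laminin receptor Bcam had 1.08 (SE 0.10). The lower ones, all named after their values were seen, were Ddr2 at -1.47 (SE 0.33), Itga2, and Itgb3 with 0 counts in both Brg1-cKO libraries. Ddr2 is a collagen receptor of mesenchymal cells. Itgb3 was at least 17.7-fold lower, with 3 counts over the group as the floor, and stood at 2.13 CPM in control. Of all 18172 tested genes, 1527 likewise had 0 counts in both Brg1-cKO libraries. Itga2, the alpha chain of a collagen-binding integrin, was at 0 and 0.561 CPM in Brg1-cKO and at 15.8 and 15.2 CPM in control.

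Of 18 enzymes and chaperones that fold, modify, secrete or cross-link collagen IV, 2 were higher and 1 lower at an unadjusted p under 0.05. Of all tested genes, 5.44% were higher and 12.9% lower at that p. The median log2 fold change was 0.02 for the list and -0.06 over all tested genes. P3h2, a prolyl 3-hydroxylase that acts on collagen IV, was at 44.6 and 43.2 CPM in Brg1-cKO and at 21.8 and 15.2 CPM in control (log2 fold change 1.25, SE 0.36). P4ha2, a prolyl 4-hydroxylase subunit, had 1.198 (SE 0.38), and Loxl2, a lysyl oxidase that cross-links collagen IV, had -1.01 (SE 0.32). Heparan sulfate enzymes, which build the side chains of agrin and perlecan, had 1 of 15 higher and 2 lower, beside the same shares of all genes. Their median log2 fold change was -0.02. Extl2, a glycosyltransferase of the linkage region, had a log2 fold change of 1.16 (SE 0.35), and the 6-O-sulfotransferase Hs6st2 had -0.96 (SE 0.26). The second lower one, Hs3st1, named after its values were seen, had 0 counts in both Brg1-cKO libraries and 2.56 CPM in control, at least 21.4-fold lower. Such zeros were found for 1527 of all 18172 tested genes. In all of these lists 0 genes passed the adjusted threshold.

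Other basement membrane genes had 1 of 15 higher and 2 lower at an unadjusted p under 0.05, beside 5.44% and 12.9% of all tested genes. Their median log2 fold change was 0.35. Frem2, of the Fraser complex, was at 485 and 582 CPM in Brg1-cKO and at 336 and 345 CPM in control (log2 fold change 0.65, SE 0.13). Col15a1, a collagen of vascular and stromal basement membrane zones, was lower at -1.59 (SE 0.54), as was the scarce Tinag, named after its values were seen, with 0 counts in both Brg1-cKO libraries. Among transcription regulators known for collagen IV genes, Wt1 had a log2 fold change of 0.80 (SE 0.09) and Smad3 one of -0.51 (SE 0.15), both at an unadjusted edgeR p under 0.05 and neither past the adjusted threshold. Lmx1b, the podocyte homeodomain factor needed for Col4a3 and Col4a4 in mice, was named after its values were seen and stood at 96.7 and 62.1 CPM in Brg1-cKO and at 53.7 and 57.7 CPM in control. Lmx1b had a log2 fold change of 0.51 (SE 0.30), and its edgeR adjusted p was 0.508.

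**Figure D4:**
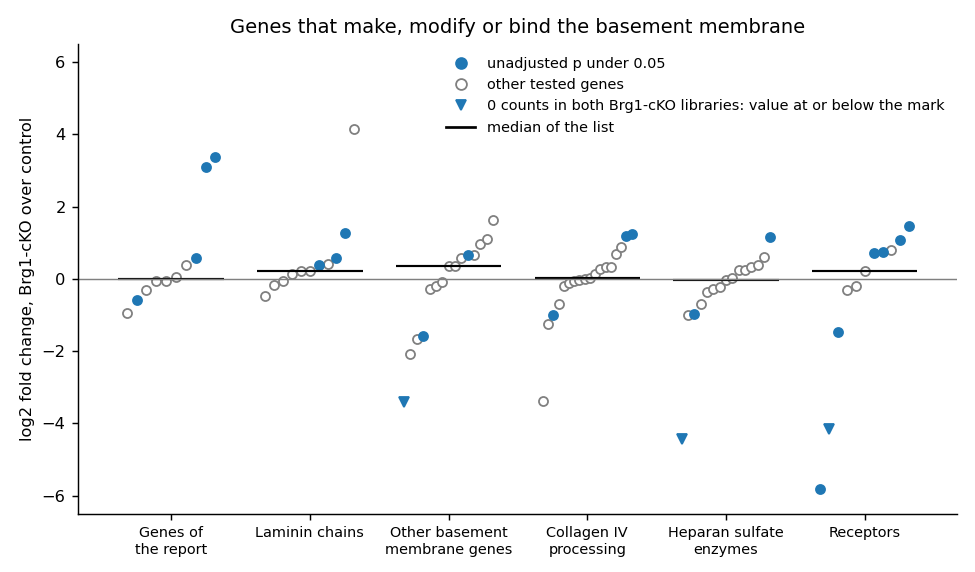
Log2 fold change, Brg1-cKO over control, of every tested gene in the basement membrane lists, with the median of each list as a black line. Filled marks have an unadjusted p under 0.05, triangles are upper bounds for genes with 0 counts in each Brg1-cKO library, and the medians of the 6 lists lie between -0.02 and 0.35.

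Markers of cell types that make these proteins also had different levels in the groups. In bulk RNA, fewer cells of a type and less RNA per cell cannot be told apart. Of 14 podocyte markers, 14 had a log2 fold change above 0, as had 47% of all tested genes. In 11 of them both Brg1-cKO libraries lay above both controls, beside 17.5% of all tested genes, and 3 overlapped between the groups. At an unadjusted edgeR p under 0.05, 10 were higher, beside 5.44% of all tested genes. Their summed level was 3628 and 3813 CPM in Brg1-cKO cells against 1263 and 1285 CPM in control. None of them was at 0 in either group. Col4a3, Col4a4 and Agrn were likewise higher, but the Col4a3 and Col4a4 levels were lower in Brg1-cKO replicate 2, where the podocyte sum was the higher. Nphs1, a podocyte marker that encodes nephrin, likewise stood at 152 CPM in Brg1-cKO replicate 1 and 198 CPM in replicate 2, against 21.8 and 22.1 CPM in control.

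Endothelial cells also make Col4a1, Col4a2, nidogens and perlecan, and 14 of 15 endothelial markers had a log2 fold change below 0. In 12 of them both Brg1-cKO libraries lay below both controls, beside 34.5% of all tested genes. Of the 15, 6 were lower and 1 higher (Cldn5) at an unadjusted p under 0.05, beside 12.9% and 5.44% of all tested genes. Their summed level was 611 and 470.4 CPM in Brg1-cKO cells and 966 and 976 CPM in control, with no marker at 0. Pecam1 was at 36.9 and 20.4 CPM in Brg1-cKO and at 82.4 and 92.5 CPM in control. Of 14 stromal markers, 12 had a log2 fold change below 0. At an unadjusted p under 0.05, 5 were lower and 1 higher, beside the same shares of all tested genes. The stromal list summed to 2154 and 1978 CPM in Brg1-cKO cells and 3496 and 3457 CPM in control. Ren1 was at 0 counts in both Brg1-cKO libraries, as were 1527 of all 18172 tested genes. The lower sums lie beside lower perlecan and Nid1, and beside Col4a1 and Col4a2 levels near those of control.

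Ureteric bud markers, of an epithelium that also lays down collagen IV, had a log2 fold change below 0 for 11 of 11 tested. In 9 of them both Brg1-cKO libraries lay below both controls, beside 34.5% of all tested genes. The list summed to 89.7 and 109 CPM in Brg1-cKO cells and 323 and 321 CPM in control. Calb1, Wnt9b and Wnt7b were at 0 counts in both Brg1-cKO libraries, beside 1527 of all 18172 tested genes. Nephron progenitor markers were split, with a log2 fold change above 0 for 5 of 9 and below 0 for 4. In 3 both Brg1-cKO libraries lay above both controls, and in 2 (Six2 and Meox1) both lay below. Of all tested genes 17.5% lay above and 34.5% below, and 47% had a log2 fold change above 0. Six2 was at 234 and 126 CPM in Brg1-cKO and at 242 and 237 CPM in control. The list summed to 1647 and 1575 CPM in Brg1-cKO cells and 1447 and 1438 CPM in control. Its most abundant genes, Sall1 and Spock2, were both higher. Tubule markers had a log2 fold change above 0 for 5 of 8 tested (316.8 and 399 CPM against 219 and 223 CPM in control). The untested Umod and Slc27a2 were at 0 in both Brg1-cKO libraries, and at means of only 0.0699 and 0.595 CPM in control. Immune markers had a log2 fold change below 0 for 9 of 10 (58.4 and 57.3 CPM against 148 and 144 CPM in control). Of these, C1qa was at 0 in both Brg1-cKO libraries. Erythroid markers summed to under 1 CPM in every library. The part of these cell types in the collagen, agrin and perlecan differences was not tested.

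**Figure D5:**
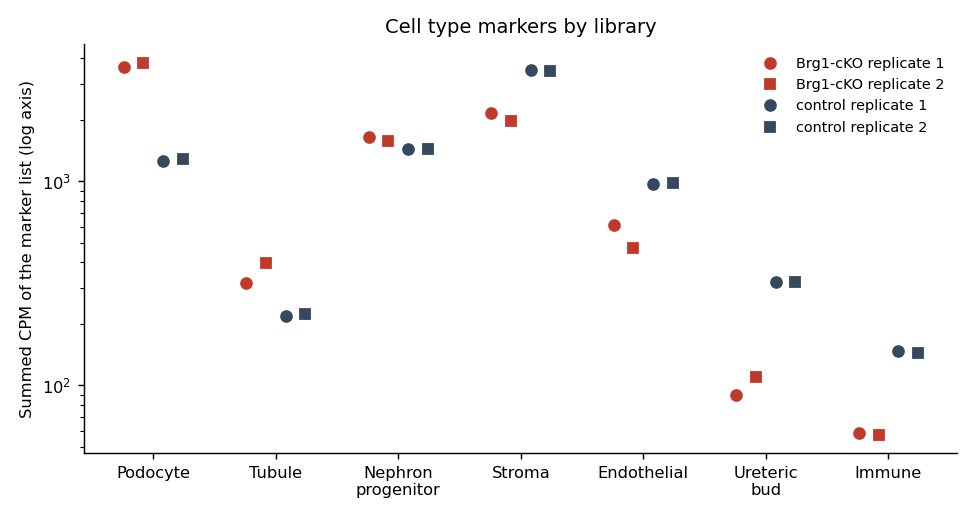
Summed CPM of 7 cell type marker lists in each library (log axis), Brg1-cKO in red and control in dark blue. Podocyte, tubule and nephron progenitor sums are higher and stromal, endothelial, ureteric bud and immune sums lower in each Brg1-cKO library than in either control.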

How the data were processed

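The deposited files hold whole-number counts of reads per Ensembl gene, 1 file per library. Per the labels' protocols, mRNA was purified from total RNA on beads, and stranded, randomly primed libraries were read as single ends of 75 bp. TopHat, DESeq2 and mm10 are named in the submitters' processing notes; which program counted the reads, with which gene models and whether by strand, is not given in the sources used here. Summary lines for reads assigned to no gene (65.5% and 72.1% of reads in Brg1-cKO, 32.4% and 31.8% in control) were left out. Symbols were matched for 52403 of 52636 identifiers.

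Counts were fitted with edgeR 4.0.16 in R 4.3.3 with the group as the only term (TMM, default filter with minimum count 10, robust quasi-likelihood F test, Benjamini-Hochberg over 18172 genes at 0.05). CPM use TMM-scaled library sizes, and CPM per kilobase divides by the merged exon length in GENCODE. Standard errors are the log2 fold change over the root of F. The fits were tested on simulated data with the same assumed scatter in both groups. That test does not decide between the tools that disagree here. Alternatives were DESeq2 1.42.0 (every gene, its own filtering), limma-voom (limma 3.58.1), the likelihood ratio test, other scalings and filters, a replicate block and each library left out. At these depths a count of 0 allows up to 0.0789 to 0.275 CPM in a library, and such floors cover counting error only. The rule for named genes takes all 10 genes and, from each other list, up to 4 genes at 10 CPM or more with the smallest p. Genes of these lists that are named outside the rule were named after their values were seen. The genes, lists and rule were chosen with earlier results of these data known. The regulator list is given only in part, and its remaining result is not reported here.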

Additional observations from a re-analysis of the deposited data

How the results depend on the processing

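In edgeR's quasi-likelihood test 0 genes passed the adjusted threshold (3328 at an unadjusted p under 0.05). Over all genes, 2027 passed in DESeq2, 2471 by likelihood ratio, 327 in limma-voom and 156 with the replicate block. Leaving out 1 library gave from 16 (without either control) to 13262 (without Brg1-cKO replicate 2; 12315 without replicate 1). The lone library of a group was then assumed to vary like the other group. The replicate numbers share no stated source and did not pair the libraries (correlation of deviations -0.016). The block kept 3 of the 10 genes higher and 1 lower at an unadjusted p under 0.05, beside 611 and 526 of all 18172 genes. The scalings, filters and other tools gave the same counts of 3 and 1, but their counts over all genes differed. The scalings called 904 to 1110 of 18172 higher and 2235 to 2445 lower. A filter of 10 CPM in 2 libraries called 827 and 595 of 10390, and no filter 947 and 2652 of 30930. DESeq2 called 2487 and 1860 of 30930. The likelihood ratio test called 1162 and 2605 of 18172, and limma-voom 1068 and 2535. Leaving out 1 library gave 1 to 5 higher (1 without either control, 5 without Brg1-cKO replicate 2) and 1 to 6 lower (6 without Brg1-cKO replicate 1, 2 without replicate 2). With the block Col4a4 passed (adjusted p = 0.0454), and Hspg2 (0.0578), Agrn (0.0835) and Col4a3 (0.584) did not; the cause was not tested.

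With 1 library left out, the log2 ratio difference of Col4a3 to Col4a1 ran from 2.79 to 4.22 and that of Col4a4 to Col4a2 from 2.57 to 3.56. The replicate block left both at 3.50 and 3.07 by construction, since the mean paired difference equals the difference of group means. Over 13 alternatives the log2 fold change ran from 2.64 to 4.25 for Col4a3, 2.47 to 3.50 for Col4a4, 0.54 to 0.65 for Agrn and -0.77 to -0.47 for Hspg2. Nid2 changed sign, to -0.40 without Brg1-cKO replicate 1, which lay above control, and was 0.36 without replicate 2, which lay below. The scarcest genes limit precision most, with 46 counts of Col4a3 in control replicate 2 and 47 of Col4a6 in Brg1-cKO replicate 2.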
